A study of Mus musculus with 28 samples.

Results

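The proteoglycan-cleaving ADAMTS proteinases are secreted metalloproteinases that cut the core proteins of large aggregating proteoglycans such as aggrecan and versican, and some also cut the glycoprotein COMP. The 6 genes described here, Adamts1, Adamts4, Adamts5, Adamts9, Adamts12 and Adamts15, were chosen by name from the ADAMTS genes outside the procollagen N-proteinases. Another 10 ADAMTS proteinases outside the N-proteinases were kept as a separate list, so the 6 are not all of them. These 6 are part of the 25719 genes in the count tables. They were read in tail tendon fascicles, which were homogenised whole, from 28 C57BL/6 mice, 1 library for each mouse. In Fosl-2(Tg) mice, a random insertion adds a copy of murine Fosl2, linked to eGFP by a self-cleaving peptide and driven by the promoter of the MHC class I gene H2Kb, which is active in most nucleated cells. WT mice were bred alongside them and lack the insertion. Stages are named after the phenotype of the Fosl-2(Tg) mice, and the WT mice are controls of the same cohort. The early stage held 7 WT and 8 Fosl-2(Tg) mice, all of them male. The established stage held 6 WT and 7 Fosl-2(Tg) mice, of which 11 of 13 were female, with 1 male of each genotype (replicate 5 in both). Per the study, the established cohort was also the older one, so sex and age cannot be told apart from stage. Per the study's methods, RNA yield from transgenic tendons was low and mice with a severe phenotype dropped out, so the mice sampled are those that remained.

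ADAMTS proteinases are made with a propeptide, which furin-like convertases can remove, and they act on substrates in the matrix or on the cell surface. TIMP-3 is their best-known tissue inhibitor, and LRP1 is an endocytic receptor that clears several of them. In tendon, turnover of aggrecan and versican by these enzymes is part of normal matrix maintenance, and mice without ADAMTS5 accumulate aggrecan in tendon. ADAMTS4 and ADAMTS5 are the classical aggrecanases, ADAMTS1, ADAMTS9 and ADAMTS15 are versicanases with aggrecanase activity, and ADAMTS12 cuts COMP.

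The libraries held between 9645598 and 66894396 counts. Values per mouse are counts scaled to library size (CPM) after TMM scaling, a correction for library composition, over all 28 libraries. All 8 tendon fibroblast markers were detected in every group, and their mean level in established Fosl-2(Tg) mice was lower than in WT by 2.03 on the log2 CPM scale (-2.03, exact permutation p = 0.00117, two-sided). It differed by 0.24 between genotypes at the early stage (exact permutation p = 0.0681). The sum of 10 skeletal muscle markers ranged from 40.0 to 16337 CPM between mice, and its mean log2 level did not pass the test between genotypes at either stage (1.63, exact permutation p = 0.176, early, and -1.08, exact permutation p = 0.519, established). The 8 keratinocyte markers summed to at most 15.5 CPM in any mouse, with differences of -0.09 (exact permutation p = 0.313, early) and 0.03 (exact permutation p = 0.934, established). As Fosl-2(Tg) minus WT on the log2 scale, erythroid markers differed by -1.18 (exact permutation p = 0.0140) early and 1.70 (exact permutation p = 0.0291) established, and macrophage markers by -0.38 (exact permutation p = 0.00404) and 0.34 (exact permutation p = 0.0268). In bulk tissue, fewer cells of a type and less RNA per cell cannot be told apart. The Fosl2 count, which sums transgene and endogenous gene, overlapped between genotypes, with log2 fold changes of 0.20 (SE 0.24, FDR = 0.918) early and 0.38 (SE 0.15, FDR = 0.141) established by edgeR's quasi-likelihood test, so genotype rests on the labels.

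The 6 genes lie on 5 chromosomes of GRCm39. Adamts1 (ENSMUSG00000022893, chr16:85590579-85600009) and Adamts5 (ENSMUSG00000022894, chr16:85653061-85698716) are neighbours on the minus strand of chromosome 16, separated by 53.1 kb. Adamts4 (ENSMUSG00000006403) lies at chr1:171077986-171089841 on the plus strand and Adamts12 (ENSMUSG00000047497) at chr15:11064876-11349318 on the plus strand. Adamts9 (ENSMUSG00000030022) lies at chr6:92749680-92920520 and Adamts15 (ENSMUSG00000033453) at chr9:30810451-30833863, both on the minus strand. The 300 bases just upstream of the annotated start are given for Adamts9, the member past the threshold between genotypes, and for Adamts1, one of the pair with the highest levels. They were read 5′ to 3′ from the GRCm39 genome on the strand of the gene, none of their bases lies in an annotated exon, and capitals mark a match to the TATA box letters TATAAA on either strand.
Adamts9, chr6:92920521-92920820, minus strand: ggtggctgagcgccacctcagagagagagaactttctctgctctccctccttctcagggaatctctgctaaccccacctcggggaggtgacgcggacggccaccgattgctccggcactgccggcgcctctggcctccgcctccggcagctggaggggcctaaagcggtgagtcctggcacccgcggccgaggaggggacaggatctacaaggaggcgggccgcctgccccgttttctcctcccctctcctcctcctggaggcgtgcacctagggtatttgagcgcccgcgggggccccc
Adamts1, chr16:85600010-85600309, minus strand: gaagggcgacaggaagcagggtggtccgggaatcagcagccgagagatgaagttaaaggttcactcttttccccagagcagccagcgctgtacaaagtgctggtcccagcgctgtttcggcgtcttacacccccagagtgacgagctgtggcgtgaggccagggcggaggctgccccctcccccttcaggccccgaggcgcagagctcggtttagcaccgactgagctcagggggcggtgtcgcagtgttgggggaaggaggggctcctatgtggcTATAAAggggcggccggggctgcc
FRA-2, the Fosl2 product, is a subunit of AP-1, a transcription factor that binds the letters TGANTCA. These letters were in 0 of these 2 windows, against 7.38% of the 21757 windows of protein-coding genes, and the related cyclic AMP response element TGACGTCA was also in 0 of 2, against 1.75%. Both strands were searched, and the absence of a match says only that these letters are not in these windows. TATAAA was in 1 of the 2 windows, that of Adamts1, where it began 24 bases upstream of the start, against 14.2% of all windows.

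Levels of different genes were compared as CPM per kb of exon length. Adamts5 and Adamts1 held the first 2 places in each of the 4 groups, and Adamts4 held the last. In WT mice, Adamts5 averaged 10.6 ± 1.98 CPM per kb (SD, n = 7) early and 10.9 ± 1.18 (SD, n = 6) established, and Adamts1 averaged 6.58 ± 2.61 and 5.36 ± 1.28. Adamts5 lay above Adamts1 in 6 of 7 WT early, 6 of 6 WT established and 7 of 7 Fosl-2(Tg) established mice, whereas in Fosl-2(Tg) early mice the order of the pair was even, with Adamts1 ahead in 4 of 8. Adamts4, at 0.734 ± 0.369 CPM per kb in WT early and 1.00 ± 0.243 in WT established mice, was lowest in all of the 7 WT early mice when set against Adamts9, the next above it. In WT established mice Adamts12 and Adamts4 could not be ordered, since Adamts12 was the higher in 3 of 6.

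**Figure D1:**
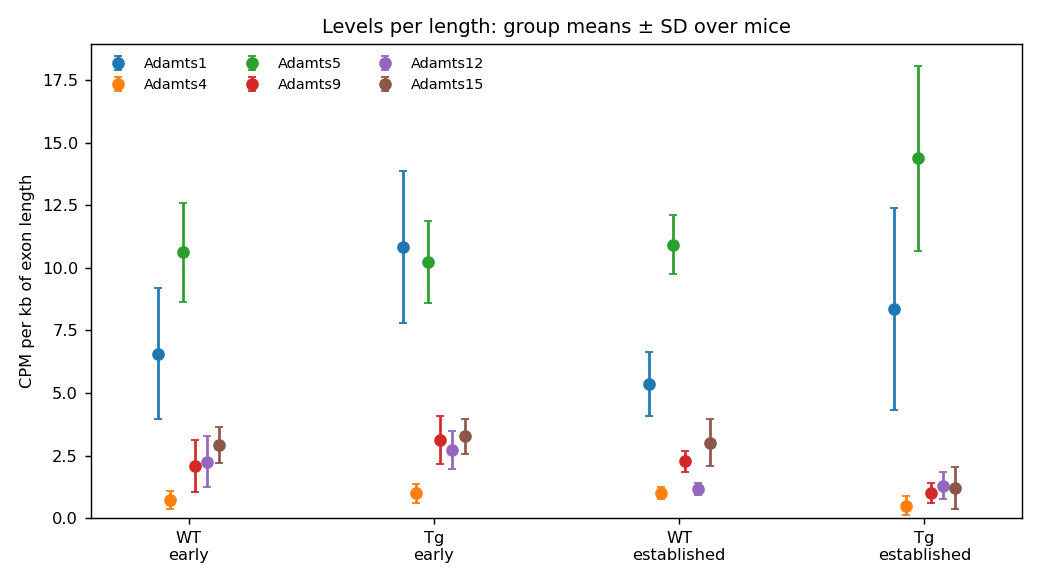
Level of each proteinase per length, as CPM per kb of exon length (y axis), in the 4 groups (x axis). Points are means and bars are SD over 7, 8, 6 and 7 mice, and Adamts5 and Adamts1 sit above the other members in each group.

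Adamts5 supplied 42.9% ± 8.43 (SD, n = 7) of the summed level per kb of the 6 genes in WT early, 33.5% ± 6.62 (n = 8) in Fosl-2(Tg) early, 46.1% ± 5.41 (n = 6) in WT established and 53.8% ± 4.96 (n = 7) in Fosl-2(Tg) established mice. The share of Adamts9 was 9.63% ± 1.94 in WT established and 4.02% ± 1.81 in Fosl-2(Tg) established mice, and that of Adamts15 was 12.6% ± 3.24 and 4.85% ± 3.27. The sum itself was 25.2 ± 5.02, 31.2 ± 5.11, 23.8 ± 1.83 and 26.8 ± 6.72 CPM per kb in the same order of groups. In the middle of the order, Adamts15, Adamts9 and Adamts12 averaged 3.02, 2.28 and 1.17 CPM per kb in WT established mice. There Adamts15 exceeded Adamts9 in 5 of 6 mice, and Adamts9 exceeded Adamts12 in 6 of 6. Adamts9 exceeded Adamts12 in 7 of 8 Fosl-2(Tg) early mice, and Adamts15 exceeded Adamts12 in 6 of 7 WT early mice. Other neighbours among them were closer to even. Adamts12 exceeded Adamts9 in 4 of 7 WT early mice, Adamts15 exceeded Adamts9 in 5 of 8 Fosl-2(Tg) early and 4 of 7 Fosl-2(Tg) established mice, and Adamts12 exceeded Adamts15 in 4 of 7 Fosl-2(Tg) established mice. With the longest annotated transcript as length, only 3 of the 6 genes kept their place in all groups.

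To ask which of these proteinases differ between Fosl-2(Tg) and WT tendon before and after fibrosis is established, the genotypes were compared within each stage by edgeR's quasi-likelihood test, with the FDR computed over all genes tested. At the early stage none of the 6 members passed an FDR of 0.05, by edgeR, DESeq2 or limma voom. Over all genes 0.0396% passed at that stage. At an unadjusted p under 0.05, 2 members (Adamts1 and Adamts9) stood out, against 6.06% of all genes. At the established stage, Adamts9 fell, to 0.448 of the WT mean, and was the only member past the FDR threshold, against 6.51% of all genes called (3.37% lower and 3.14% higher). At an unadjusted p under 0.05 there were 5 members, against 26.6% of all genes. In neither stage did the genotypes separate without overlap for any of the 6 genes, against 0.0528% of genes early and 3.81% established.

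**Figure D2:**
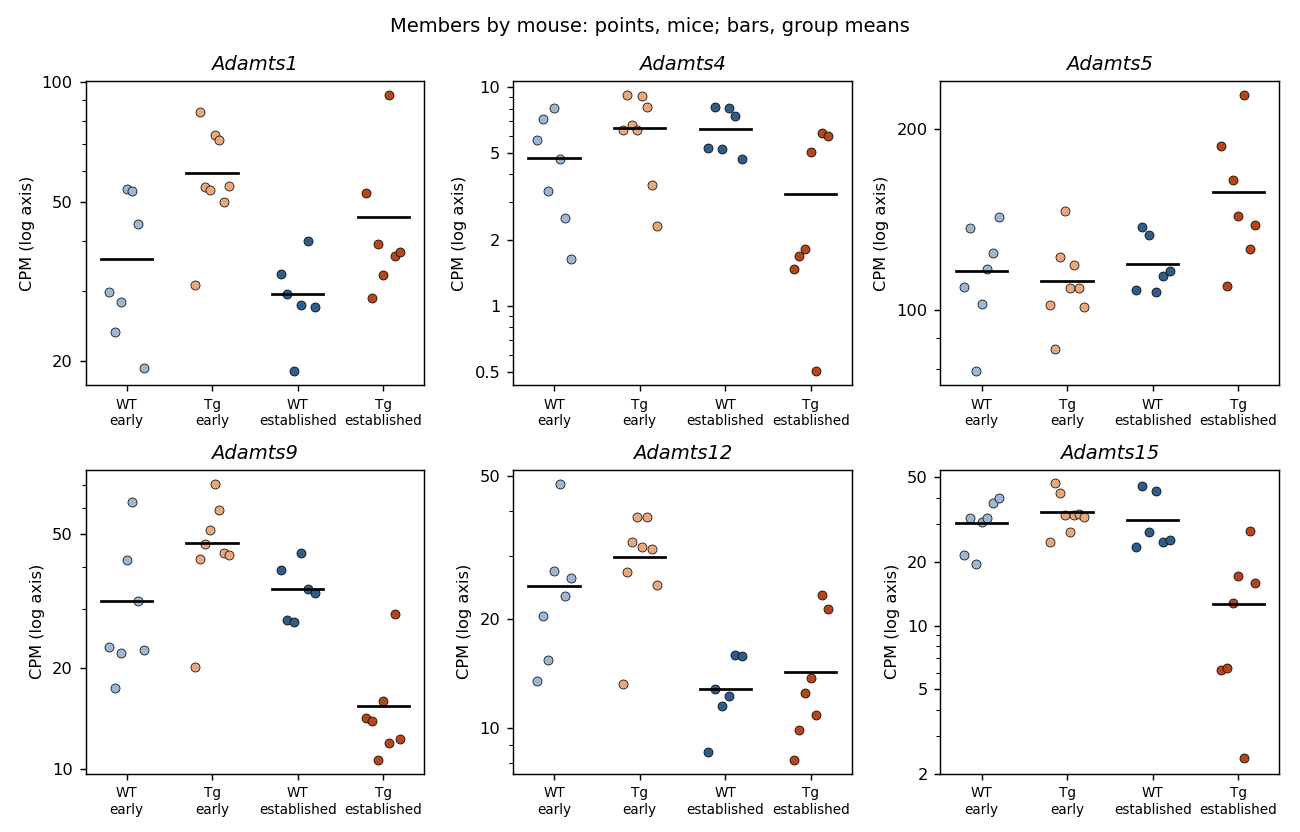
CPM of each proteinase (log axis) in every mouse, by group. Points are mice and bars are arithmetic group means, and in established Fosl-2(Tg) mice 6 of 7 points lie below the lowest WT mouse for Adamts9 and for Adamts15.

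Adamts9 is a versican-cleaving enzyme with a long tail of thrombospondin repeats. In WT established mice its CPM ranged from 27.4 to 43.9 with a median of 33.9, while established Fosl-2(Tg) mice spanned 10.6 to 28.9, median 13.9. Of the 7 transgenic mice, 6 lay at or below 16.0 CPM and under the lowest WT mouse, and replicate 6 alone, at 28.9, fell within the WT range. The log2 fold change was -1.16 (SE 0.21, FDR = 0.0133, edgeR), and it passed the threshold with each of the 13 libraries left out in turn. At the early stage, the WT range was 17.5 to 62.5 CPM (median 23.0) and the transgenic range 20.1 to 70.8 (median 45.3), with 7 of 8 transgenic mice above the WT mean. This early difference, 0.58 on the log2 scale (SE 0.27), did not pass the test over all genes (FDR = 0.818, edgeR). The ranges of the genotypes overlapped almost fully, and the WT mice with the highest Adamts9, replicates 4 and 5, also had the highest Col1a1 of their group (279649 and 350403 CPM), whose part was not tested.

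Adamts15 is a versicanase and aggrecanase of the branch that also holds ADAMTS1, ADAMTS4 and ADAMTS5. Its CPM in WT established mice ran from 23.6 to 45.5 with a median of 26.5, while established Fosl-2(Tg) mice spanned 2.38 to 28.1, median 12.8. Again 6 of 7 transgenic mice lay under the lowest WT mouse, and replicate 6, at 28.1, was the exception. The spread among transgenic mice was wide (coefficient of variation 68.9%, against 31.3% in WT), and the log2 fold change of -1.32 (SE 0.42) did not reach the threshold (FDR = 0.0718, edgeR). It passed without Fosl-2(Tg) replicate 6 (-1.63, FDR = 0.0285) and by DESeq2 (FDR = 0.0161) and limma voom (FDR = 0.00897). At the early stage the ranges were 19.6 to 39.9 CPM in WT and 24.8 to 46.8 in Fosl-2(Tg) mice, with medians of 32.0 and 33.3, and the log2 fold change was 0.16 (SE 0.16, FDR = 0.910).

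Adamts4, the aggrecanase that is induced by inflammatory cytokines in cartilage, was the least abundant of the 6 and the one with the fewest counts, 7 in its lowest library. In WT established mice it ranged from 4.72 to 8.14 CPM (median 6.33). In Fosl-2(Tg) established mice it ranged from 0.505 to 6.16 CPM (median 1.82). The transgenic mice fell on either side of the lowest WT mouse, with replicates 1, 2, 3 and 5 between 0.505 and 1.82 CPM and replicates 4, 6 and 7 between 5.09 and 6.16. The log2 fold change of -0.99 (SE 0.44) did not pass the test (FDR = 0.172, edgeR), and all 7 transgenic mice lay below the WT mean. It passed by limma voom (-1.37, FDR = 0.0164). At the early stage the WT mice ranged from 1.64 to 8.01 CPM and the transgenic mice from 2.34 to 9.23, with a log2 fold change of 0.48 (SE 0.34, FDR = 0.863).

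Adamts5, the main aggrecanase of mouse cartilage, had values in the opposite direction at the established stage. WT mice ranged from 107 to 137 CPM (median 115), while Fosl-2(Tg) mice spanned 110 to 228 (median 144), with 5 of 7 transgenic mice above the highest WT mouse. The log2 fold change was 0.40 (SE 0.15), which did not pass over all genes (FDR = 0.114, edgeR). Replicates 1, 3 and 5 of the transgenic mice, at 188, 165 and 228 CPM, were highest, and replicate 2, at 110 CPM, lay within the WT range. At the early stage Adamts5 had the smallest difference of the 6, -0.05 (SE 0.12, FDR = 0.963), with ranges of 79.3 to 143 CPM in WT and 86.2 to 146 in transgenic mice.

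Adamts1, the versicanase best known from ovulation and heart development, had positive values at both stages. In early mice it ranged from 19.2 to 53.9 CPM in WT (median 29.7), while Fosl-2(Tg) mice spanned 31.0 to 84.1 (median 54.8), with 5 of 8 transgenic mice above the highest WT mouse. In established mice the ranges were 18.8 to 40.0 CPM (median 28.5) and 28.8 to 93.0 (median 37.4). The highest value belonged to the male transgenic replicate 5, and 6 of 7 transgenic mice lay above the WT mean. The log2 fold changes were 0.71 (SE 0.24, FDR = 0.647, edgeR) early and 0.65 (SE 0.26, FDR = 0.136, edgeR) established, and the established value was 0.37 without transgenic replicate 5 and 0.43 by limma voom. Adamts12, whose product cleaves COMP, had values of 0.27 (SE 0.25, FDR = 0.906) and 0.16 (SE 0.24, FDR = 0.692). Its ranges were 13.5 to 47.6 CPM in WT early, 13.2 to 38.6 in Fosl-2(Tg) early, 8.56 to 16.0 in WT established and 8.16 to 23.4 in Fosl-2(Tg) established mice, so the genotypes overlapped at both stages.

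Whether the genotype effect itself differed between the stages was tested with an interaction term in one fit of all 28 libraries. The effect was more negative at the established stage for Adamts9, by -1.74 on the log2 scale (SE 0.37, FDR = 0.00740, edgeR), and for Adamts15, by -1.48 (SE 0.44, FDR = 0.0396, edgeR). These are 2 of 6 members, against 4.00% of all genes called more negative. Adamts9 passed with each of the 28 libraries left out in turn, and Adamts15 in 19 of 28. It missed the threshold without WT early replicate 1, 2 or 3, Fosl-2(Tg) early replicate 2 or 7, Fosl-2(Tg) established replicate 1 or 2, or WT established replicate 2 or 4, with FDR values up to 0.0745. Adamts4 had a difference of -1.48 (SE 0.57, FDR = 0.104), Adamts5 of 0.45 (SE 0.20, FDR = 0.158), Adamts12 of -0.11 (SE 0.37, FDR = 0.879) and Adamts1 of -0.08 (SE 0.36, FDR = 0.916), and none of these 4 passed by edgeR. By limma voom the Adamts4 difference passed (-1.86, FDR = 0.0109).

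The same fit gave the change from the early to the established stage within a genotype, which is also a change from male to mostly female mice. In WT mice, Adamts12 was lower at the established stage (-0.95, SE 0.27, FDR = 0.0359, edgeR) and the other 5 members did not pass, against 3.48% of all genes called lower. This call was lost without WT early replicate 4, 5, 6 or 7 or WT established replicate 1, 2, 3 or 4, with FDR values up to 0.0912. In Fosl-2(Tg) mice, 4 members were lower, against 22.0% of all genes, and 1 was higher, against 25.8%. Adamts9 fell by 1.62 (-1.62, SE 0.26, FDR = 1.55e-05), Adamts15 by 1.44 (-1.44, SE 0.31, FDR = 0.000479), Adamts12 by 1.06 (-1.06, SE 0.25, FDR = 0.00117) and Adamts4 by 0.997 (-0.997, SE 0.40, FDR = 0.0399) on the log2 scale. Adamts5 rose by 0.49 (SE 0.13, FDR = 0.00421), and Adamts1 had a value of -0.37 (SE 0.25, FDR = 0.215). The Adamts4 call was lost without Fosl-2(Tg) early replicate 2, 5 or 6 or Fosl-2(Tg) established replicate 1, 2, 3 or 5, with FDR values up to 0.0771, and Adamts1 passed without Fosl-2(Tg) established replicate 5 (-0.67, FDR = 0.0180), without both established males (-0.67, FDR = 0.0173) and by limma voom (-0.68, FDR = 0.00662). These 3 comparisons share the groups of the genotype comparisons, so their values are not independent of them.

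**Figure D3:**
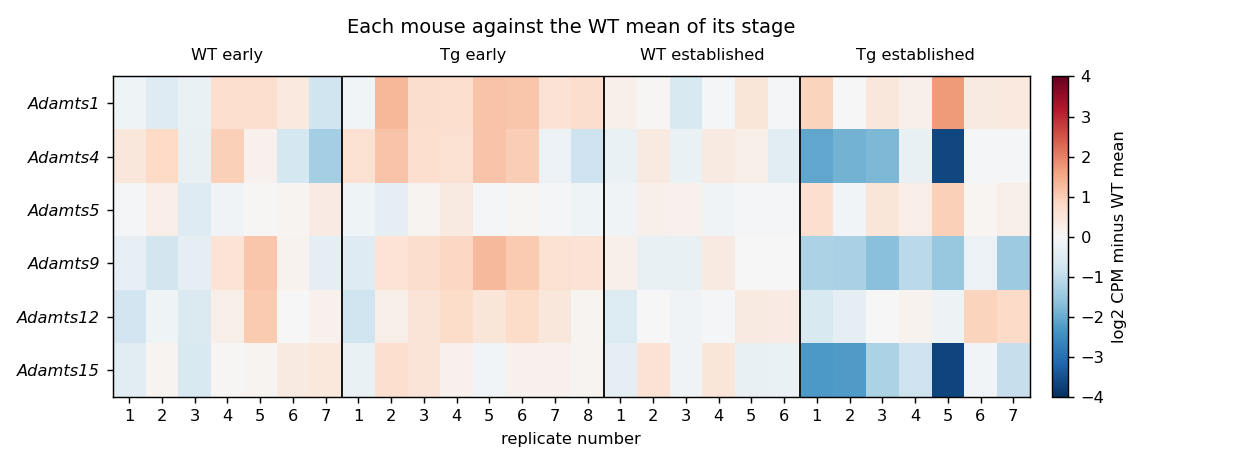
Difference of each mouse (columns, by replicate number within group) from the WT mean of its stage, in log2 CPM, for each proteinase (rows). Blue is lower and red is higher, and the darkest cells are Adamts4 (0.505 CPM) and Adamts15 (2.38 CPM) of established Fosl-2(Tg) replicate 5.

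Among established mice, the coefficient of variation of CPM was larger in Fosl-2(Tg) than in WT mice for all 6 members, at 25.6% to 73.9% against 10.8% to 31.3%. It was also larger for Col1a1 (81.1% against 27.4%) and Tnmd (84.1% against 35.9%), and smaller for Vcan (34.5% against 49.4%) and Fosl2 (11.1% against 29.5%). The share of all genes with a larger value was not counted. Established Fosl-2(Tg) replicate 5, the male, had the highest Adamts1 (93.0 CPM) and Adamts5 (228 CPM) of its group and the lowest Adamts4 (0.505 CPM) and Adamts15 (2.38 CPM). It also had the lowest Tnmd, a tendon fibroblast marker (21.1 CPM), and the lowest Col1a1 (989 CPM). Replicates 4, 6 and 7 had the 3 highest values of Adamts15 and of Adamts4 in the group. The same 3 mice had the 3 highest values of Tnmd (512, 394 and 202 CPM) and of Col1a1 (28261, 24867 and 14670 CPM). The summed tendon fibroblast markers ranged from 3305 to 73224 CPM in established Fosl-2(Tg) mice and from 91323 to 184443 in WT mice, and the part of this difference in the values of the proteinases was not tested.

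Mice were also compared with respect to which members varied together after the group means were subtracted, over 28 mice and 15 pairs of members (log2 CPM, permutation within groups, Benjamini-Hochberg adjustment over the 15 pairs). Of these, 3 pairs passed an adjusted p of 0.05, all of them positive. Adamts9 and Adamts12 had r = 0.68 (permutation p = 0.00102, adjusted 0.0153) and rho = 0.61 (permutation p = 0.00156, adjusted 0.0234), with r = 0.85 over the early and 0.36 over the established mice, and 0.47 without the 2 mice farthest from the median. Adamts12 and Adamts15 had r = 0.53 (permutation p = 0.00512, adjusted 0.0384) and rho = 0.56 (permutation p = 0.00502, adjusted 0.0376), with 0.56 early, 0.64 established and 0.59 without those 2 mice. Adamts4 and Adamts15 had r = 0.62 (permutation p = 0.00913, adjusted 0.0456), but rho did not pass (0.49, permutation p = 0.0305, adjusted 0.114). For this last pair r was 0.93 over the established and -0.14 over the early mice, and 0.48 without the 2 mice farthest from the median, and the difference between stages was not tested. The neighbouring genes Adamts1 and Adamts5 had r = 0.18 (permutation p = 0.418, adjusted 0.523) and rho = 0.08 (permutation p = 0.729, adjusted 0.841).

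Over the same 28 mice, the genes most like each member among 13333 protein-coding genes with at least 1 CPM on average were named by Pearson's r of group-centred log2 CPM, as a description. Adamts9 was most like Gas2 (0.89) and Plagl1 (0.88), and Adamts15 was most like Igsf10 (0.90) and Kera (0.89), the latter encoding keratocan, a small leucine-rich proteoglycan. Adamts4 was most like Spon2 (0.93) and Mfrp (0.88), and Adamts12 was most like Crabp1 (0.88) and Maged2 (0.86). The values were lower for the more abundant pair, with Retreg1 (0.79) and Ripor3 (0.78) for Adamts1, and Galnt16 (0.78) and Heg1 (0.78) for Adamts5. These mice share library depth and tissue content within a sample, and no test was made.

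The substrates, inhibitors and relatives of the proteinases were counted in the same fits. At the early stage, 0 genes of these 6 lists passed by edgeR, DESeq2 or limma voom, and 2, 4 and 16 had an unadjusted p under 0.05 by the respective tools, against 6.06%, 5.40% and 20.5% of all genes. By edgeR and limma voom, the lists then held 8 other ADAMTS proteinases, 3 procollagen N-proteinases and 7 ADAMTS-like genes that were tested. They also held 10 substrate, 4 inhibitor and 9 activation, cofactor and clearance genes. At the established stage, 2 of the 10 tested substrate and matrix proteoglycan genes fell and none rose, against 3.37% and 3.14% of all genes. Of the 10, 9 had values below 0, with a median log2 fold change of -0.55, against 0.01 over all genes. Vcan, which encodes versican, fell by 1.12 (-1.12, SE 0.28, FDR = 0.0337, edgeR), and Bcan, which encodes brevican, fell by 1.40 (-1.40, SE 0.34, FDR = 0.0306, edgeR). At the established stage Vcan spanned 262 to 784 CPM in WT and 112 to 282 CPM in Fosl-2(Tg) mice, and Bcan, at 3.90 to 6.89 and 0.577 to 4.40 CPM, was a low gene. The Vcan call was lost without Fosl-2(Tg) established replicate 1 or 2 or WT established replicate 1, 2 or 6. That of Bcan was lost without Fosl-2(Tg) established replicate 1, 2 or 3 or WT established replicate 1, 2, 4, 5 or 6, with FDR values up to 0.0676. Acan, which encodes aggrecan, had values of 0.69 (SE 0.56, FDR = 0.885) early and 1.10 (SE 0.64, FDR = 0.286) established. In established mice it ranged from 1.12 to 3.05 CPM in WT (median 2.12) and from 1.03 to 14.2 CPM in Fosl-2(Tg) mice (median 1.56), and the value was 0.42 without Fosl-2(Tg) replicate 7 and 0.20 by limma voom. Comp had values of -0.26 (FDR = 0.909) early and -0.44 (FDR = 0.452) established, and Vcan at the early stage of 0.23 (FDR = 0.854).

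**Figure D4:**
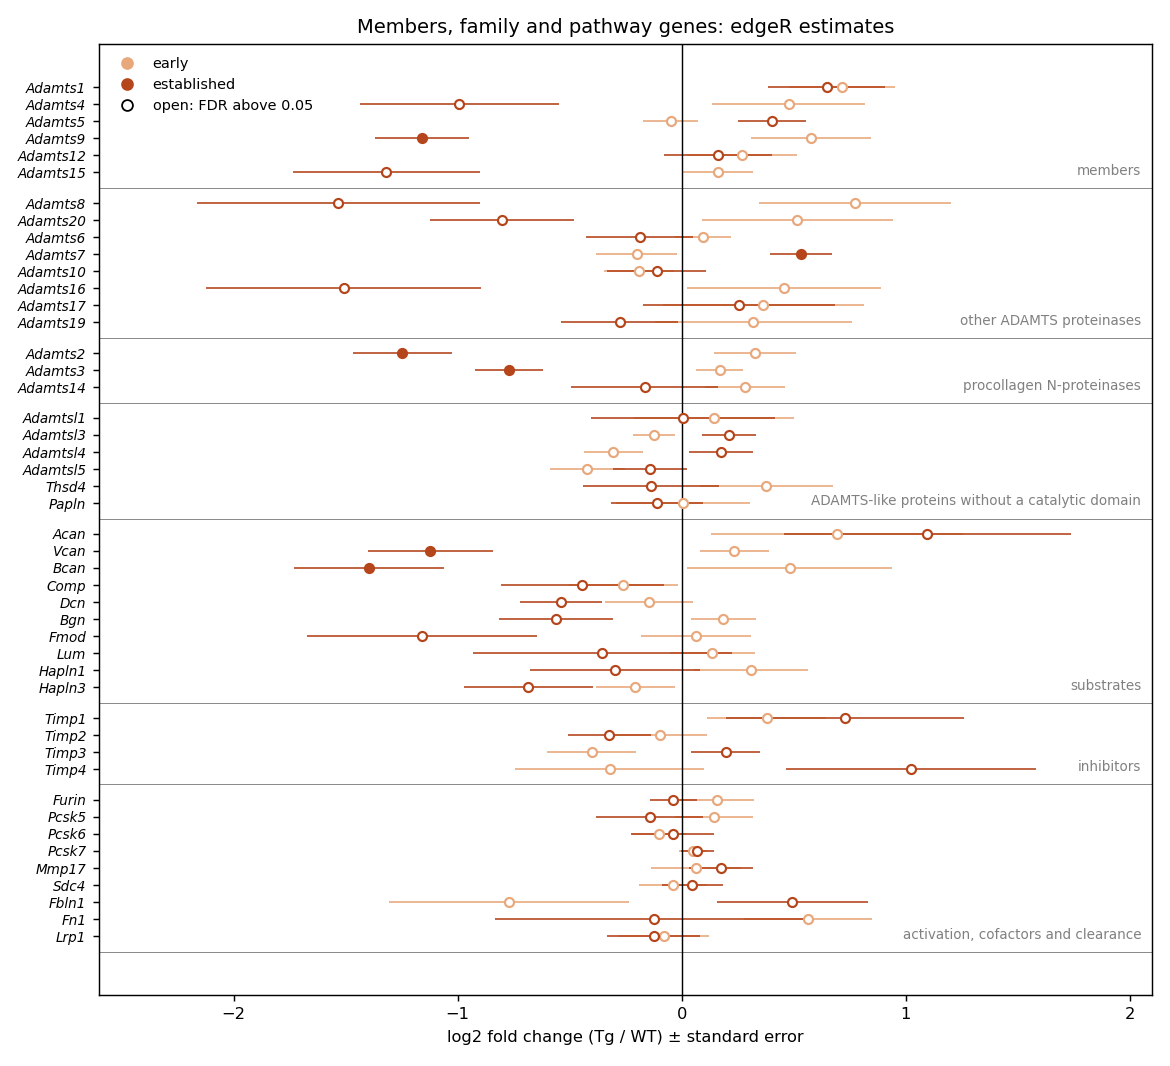
Log2 fold change of Fosl-2(Tg) against WT (x axis, bars are standard errors of the edgeR fit) for the 6 members and the related genes tested at both stages. Filled points passed an FDR of 0.05, which among the members is Adamts9 at the established stage.

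Of the other ADAMTS genes, 2 of the 3 procollagen N-proteinases, which trim fibrillar procollagens, fell at the established stage, against 3.37% of all genes. Adamts2 fell by 1.25 (-1.25, SE 0.22, FDR = 0.0128, edgeR) and Adamts3 by 0.77 (-0.77, SE 0.15, FDR = 0.0165, edgeR), values on the same side as that of Adamts9. Among 8 tested further ADAMTS proteinases only Adamts7 passed, as a rise, against 3.14% of all genes called higher. Adamts7, another COMP-cleaving enzyme and a close relative of Adamts12, rose by 0.53 (SE 0.14, FDR = 0.0379, edgeR). That call was lost without Fosl-2(Tg) established replicate 1, 2 or 3 or WT established replicate 1, 2, 4 or 5, with FDR values up to 0.0742. Of these 8 genes, 6 had values below 0, with a median log2 fold change of -0.23. In this list 4, 4 and 1 genes had an unadjusted p under 0.05 by edgeR, DESeq2 and limma voom, against 26.6%, 22.4% and 28.7% of all genes. None of the 6 tested ADAMTS-like genes, whose products lack a catalytic domain, passed by edgeR, DESeq2 or limma voom (0, 1 and 2 at an unadjusted p under 0.05, against 26.6%, 22.4% and 28.7% of all genes). Of the 4 tested inhibitor genes none passed by these tools (0, 0 and 2), and Timp3 had values of -0.40 (SE 0.20, FDR = 0.834) early and 0.20 (SE 0.15, FDR = 0.429) established. Among 9 genes of activation, cofactors and clearance none passed either (0 with each tool at an unadjusted p under 0.05), with Lrp1 at -0.08 (SE 0.20, FDR = 0.965) and -0.12 (SE 0.21, FDR = 0.727). The median log2 fold change of the 6 members was 0.37 early, with 5 of 6 above 0, against a median of -0.01 over all genes, and -0.42 established, with 3 of 6 above 0, against 0.01.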

How the data were processed

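The authors depleted ribosomal RNA from total RNA, built libraries with a NEBNext kit, aligned the reads with STAR to GRCm39 (GENCODE M26) and counted reads per gene with featureCounts. What the authors deposited is the raw count per gene, unfiltered and unscaled. Strand setting and treatment of multi-mapping reads are not given in the sources used here. Genes were named with GENCODE M39 of the same assembly. Counts were analysed with edgeR 4.0.16 in R 4.3.3, with TMM scaling, filterByExpr (minimum count 10, minimum total 15), a quasi-likelihood test without covariates and Benjamini-Hochberg FDR at most 0.05 over all genes tested, first within each stage and then in one fit of 4 groups. The prior count for log2 CPM was 2. The procedure was tested on simulated data with known changes, in which genes varied independently of each other around a common mean profile. Tissue content that many genes share was not simulated, so these shares need not hold for the real libraries. Of the genes called in the simulation, 6.67% were false early, 4.21% established and 6.77% for the interaction. Between stages, 2.67% were false in WT and 6.06% in Fosl-2(Tg) mice. DESeq2 1.42.0 and limma 3.58.1 were alternatives, besides other scaling, filters, covariates and samples. Depth was 9645598 to 66894396 counts per library, and Adamts4 had the fewest counts of the members. The members and lists were chosen with earlier results of these data known, and all 6 members passed the filter in every fit. All 6 members are named, as are Acan, Vcan, Comp, Timp3, Lrp1 and Fosl2, and up to 3 called genes per list and stage with the largest fold change. For the replicate numbers shared by genotypes, deviations of same-numbered mice from their group means correlated at 0.14 to 0.40 in 7 early pairs, all above 0.1, and at -0.23 to 0.69 in 6 established pairs. Mice with different numbers were not compared in this way, so whether the numbers pair the mice was not tested at either stage. With the replicate number as a block, no early call changed. In that edgeR fit the early values were 0.76 for Adamts1 (FDR = 0.241) and 0.64 for Adamts9 (FDR = 0.231). The upstream sequences of the other 4 members are not reported here.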

Additional observations from a re-analysis of the deposited data

Results flagged for a closer look

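In 24 groups (6 genes in 4 groups of mice), 3 samples stood apart from the others of their group by more than Dixon's 95% limit. Chance gives about 1 in 20 groups only where values are normally distributed. The limit was applied to CPM without a log scale, all 3 samples were the highest of their group, and normality was not tested. Adamts1 in established Fosl-2(Tg) replicate 5 was 93.0 CPM, with the next mouse of the group at 52.6. Adamts9 in established Fosl-2(Tg) replicate 6 was 28.9 CPM, with the next at 16.0. Adamts12 in WT early replicate 5 was 47.6 CPM, with the next at 27.2, and the same mouse had the highest Adamts9 (62.5 CPM) and Col1a1 (350403 CPM) of its group.

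The genotype effect differed between stages by the interaction term for Adamts9 (-1.74 on the log2 scale, FDR = 0.00740, edgeR) and Adamts15 (-1.48, FDR = 0.0396, edgeR). Stage cannot be told apart from sex. With both established males left out, Adamts9 and Adamts15 still passed. The early mice were then all male and the established mice all female, so that fit cannot separate stage from sex either.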

How the results depend on the processing

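Adamts9 at the established stage passed under all 10 alternative settings (-1.32 to -1.11, FDR at most 0.0282), and its interaction and that of Adamts15 passed under all 8. The number of members past the threshold at the established stage was 1, and it became 3 with limma voom, with the muscle marker level as a covariate and with sex as a covariate, and 2 with DESeq2 and with all 28 libraries in 1 fit. Adamts15 was among the added calls in each of these 5, and Adamts4 with limma voom (-1.37), by which its interaction passed too (-1.86). The 6.51% of all genes called belongs to the edgeR fit without covariates. The shares of all genes called under the other settings are not given here, so these counts are not set against them. Whether the replicate numbers pair the mice was not tested. With the replicate number as a block, 2 members passed at the established stage, Adamts15 among them (FDR = 0.0486). In that fit Adamts12 turned to -0.019 and Acan to -0.16, and at the early stage Lrp1 turned to 0.021. The block changed no other count of members. With the muscle covariate, Adamts1 passed at the established stage (FDR = 0.0359), as it did with sex (FDR = 0.0403), and the sign turned for Lrp1 early (0.15), Adamts7 early (0.023), the interaction of Adamts1 (0.095) and of Adamts12 (0.015) and the WT stage difference of Adamts15 (-0.0056). Without the established males the Adamts12 interaction was 0.0040, and Adamts4 no longer passed between stages in Fosl-2(Tg) mice (FDR = 0.0673), while Adamts1 did (-0.67, FDR = 0.0173), as it did with limma voom (-0.68, FDR = 0.00662). With the longest transcript as length, 3 of 6 members kept their place. Of the other genes, Vcan, Bcan and Adamts7 did not pass in females only (FDR 0.0542, 0.0515 and 0.0761), Bcan (FDR = 0.0581) and Adamts7 (FDR = 0.0508) with all 28 libraries in 1 fit, or Adamts7 without a filter on low counts (FDR = 0.0520). The cause of these changes was not tested.

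With each replicate left out in turn, the number of members past the threshold was 0 early, 1 to 2 established, 1 to 2 for the interaction, 0 to 1 between stages in WT and 4 to 5 in Fosl-2(Tg) mice. Signs turned, in values that passed in no fit, for Adamts5 early (-0.12 to 0.0064), Lrp1 early (-0.18 to 0.046), the Adamts1 interaction (-0.35 to 0.033) and the WT stage differences of Adamts5 (-0.037 to 0.097) and Adamts15 (-0.084 to 0.12). Fosl2 passed at the established stage with limma voom (FDR = 0.0471) and without WT established replicate 2 (FDR = 0.0406). Adamts4 had the fewest counts of the members, 7 to 576 per library.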
